A study of Mus musculus with 3 samples.

Results

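The epithelial and the non-epithelial cells of mouse back skin were compared between a Piezo1 knockout taken 2 weeks after induction and its control, to see which genes differed in the epithelium, the compartment that the K5-Cre-er driver reaches, and which also differed outside it. Cells were chosen by their own counts of 4 genes. A cell counted as epithelial when the keratin genes Krt5, Krt14 and Krt15 together made up at least 0.3% of its unique molecular identifiers (UMIs, counted transcript molecules) and no Vim UMI was seen. It counted as an other cell when that share was under 0.1% and at least 1 Vim UMI was present. Of the 16765 barcodes in both 2-week matrices, 12762 fell into 1 of these compartments: 2691 epithelial and 1469 other cells in control, and 7610 epithelial and 992 other cells in the 2-week knockout.

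Back skin of C57BL/6 mice was dissociated with collagenase and trypsin and profiled with the 10x Genomics single-cell 3' assay, 1 library per group. All groups carried the K5-Cre-er driver and received tamoxifen on postnatal days 48 to 52. The control had 1 floxed Piezo1 allele and 1 floxed Td allele (K5-Cre-er/Piezo1fl/+/Tdfl/+) and was taken at day 62. The 2-week knockout, also taken at day 62, had 2 floxed Piezo1 alleles and 1 floxed Td allele (K5-Cre-er/Piezo1fl/fl/Tdfl/+). A 3-week knockout with 2 floxed alleles of each gene (K5-Cre-er/Piezo1fl/fl/Tdfl/fl), taken at day 71, was split by the same rule, and its 5565 epithelial and 2320 other cells are given only as values side by side, since it shares the control and differs in age and in the Td alleles. With 1 library on each side no difference has a replicate check and none was tested: every ratio compares 2 libraries, and every interval is a 95% interval for counting error alone.

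Piezo1 is a mechanically gated cation channel that admits calcium when the membrane is stretched. Keratin 5 and its partner keratin 14 form the intermediate filaments of basal keratinocytes and of the outer root sheath of the hair follicle, so a keratin 5 driver acts in the epidermis and its appendages. Vimentin is the intermediate filament protein of fibroblasts, endothelial cells and leukocytes, which make up most of the dermis.

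Epithelial cells had a median of 11562 UMIs in control, 7895 in the 2-week knockout and 10534 in the 3-week knockout, and other cells 5661, 3997 and 4482.5. Between 12.8% and 21.1% of the kept cells of a library fell in neither compartment, among them 375, 545 and 883 cells with many keratin UMIs and at least 1 Vim UMI. The cell thresholds cut through continuous values. In control 284 epithelial cells and in the 2-week knockout 539 held under 0.5% keratin UMIs, 56 and 65 other cells rested on a single Vim UMI, and 221 and 329 cells with many keratin UMIs were left out for 1 Vim UMI. The control and 2-week matrices shared 17 cell barcodes, 11 of them in the compartments.

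The genes that chose the cells behaved as the rule forces them to. Krt5 in epithelial cells stood at 3682 CPM in control, 4282 in the 2-week knockout and 4993 in the 3-week knockout. Krt14 stood at 6204 CPM in control, 5855 in the 2-week knockout and 8563 in the 3-week knockout. In other cells Vim stood at 3809.9 CPM in control, 3608 in the 2-week knockout and 2952 in the 3-week knockout. Low keratin counts were present in other cells and were higher in the knockout: Krt5 stood there at 35.1 CPM in control against 62.6 in the 2-week knockout, and Krt14 at 51.6 CPM in control against 68.6 in the 2-week knockout. After every cell was thinned to 2000 UMIs, 12.3% of other cells in control and 15.3% in the 2-week knockout still had a Krt14 UMI, against 91% and 88.1% of epithelial cells (54 and 285 epithelial and 40 and 71 other cells were too shallow). Keratin UMIs chose the cells and the rule caps them in other cells, so these counts cannot give the background of other genes. A background from epithelial cells may be part of each low value below, and its size was not tested.

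Not all of the other cells were dermal by their leading genes. When the cells of each compartment were clustered, 1 cluster of other cells was led by the keratinocyte differentiation genes Krtdap, Krt10, Krt77 and Krt1, with 29 control and 33 knockout cells. Its cells were the deepest of that compartment, with a median of 29833 UMIs in control and 13742 in the 2-week knockout. Results that rest on it are given with and without it. A small epithelial cluster of 49 and 63 cells was in turn led by Col1a1 and Col1a2 together with Lce genes of the cornified layer.

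Cell type markers among the other cells also differed between the 2 libraries. All 8 fibroblast markers were at least 1.5-fold lower in the 2-week knockout, and their summed level was 32480.0 CPM in control, 7589 in the 2-week knockout and 18390.0 in the 3-week knockout. The summed myeloid markers stood at 3106 CPM in control, 1276 in the 2-week knockout and 3537 in the 3-week knockout. Dermal papilla markers went the other way, from 767 CPM in control to 2023 CPM in the 2-week knockout, as did endothelial markers, from 341 CPM to 492 CPM. In epithelial cells the same fibroblast markers summed to 169 CPM in control against 206 in the 2-week knockout. In sums over a compartment, fewer cells of a type and less RNA per cell cannot be told apart. Each ratio is therefore given in a second form, here called clusters weighed alike. In it each cluster shared by both libraries has the same weight in both, set by its number of cells over the 2 libraries. Such clusters held 96.8% of control and 97.6% of knockout epithelial cells, and 67.7% and 89.7% of other cells. Left out for too few cells was, for example, a cluster led by Col1a2 and Col1a1, with 172 control and 11 knockout cells. So was 1 led by Ccl8 and Pf4, with 41 and 0 cells. Another cluster left out, led by Coch and Fmod, went the other way, with 17 and 43 cells.

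Piezo1 itself was lower in both compartments and by a similar factor, at levels near or under the limit for a measured gene set below. In epithelial cells it stood at 37.6 CPM in control, 29.7 in the 2-week knockout and 14.96 in the 3-week knockout. In other cells it stood at 60.3 CPM in control, 47.6 in the 2-week knockout and 35.2 in the 3-week knockout. The ratio of the 2-week knockout to control was 0.791 (interval 0.738 to 0.847) in the epithelium and 0.789 (interval 0.683 to 0.908) outside, so the ratio of both ratios was 1.003 (interval 0.857 to 1.18). Weighing gave ratios of 0.777 and 0.745, and without the keratinocyte-led cluster the ratio outside was 0.829. The assay reads the 3' end of a transcript and the labels do not say which exons are floxed, so a transcript that lost an internal exon may still be counted. The other channel of the family, Piezo2, was nearly absent from epithelial cells, at 0.112 CPM in control against 0.0555 in the 2-week knockout, and stood at 12.6 CPM in control against 17.9 in the 2-week knockout in other cells.

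More genes were past 1.5-fold in the same direction in both compartments than past it in the epithelium and within 1.2-fold outside. These classes are not equally strict, since genes past 1.5-fold in 1 compartment and between 1.2-fold and 1.5-fold in the other fall in none. A gene was called measured in a compartment with at least 100 UMIs over the 2 libraries and at least 50 CPM in 1 of them, and past the fold when it was at least 1.5-fold different. Near 50 CPM a gene can thus pass only through the library where it is higher, which favours genes that differ. Among the genes given below, this was the case in the epithelium for Bst2, Zbtb21, Akr1c18, Churc1, Hmgn2, Hes1, Nmt1 and Snrnp27, for example. Outside it was the case for Id1, Nmt1 and Snrnp27, among others. Of 2885 genes measured in the epithelium, 135 (4.68%) were higher and 199 (6.9%) lower in the 2-week knockout. Outside, 270 of 3458 (7.81%) were higher and 420 (12.1%) lower. Scaling to the median ratio of all genes, which was -0.09 in the epithelium and -0.03 outside on the log2 scale, changed the epithelial split to 184 higher and 134 lower.

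Among the 2402 genes measured in both compartments, 50 (2.08%) were past the fold upwards in both and 43 (1.79%) downwards in both. Scaled to the median ratio, these became 68 and 25. Past the fold in the epithelium and within 1.2-fold outside were 12 genes upwards (0.5%) and 39 downwards (1.62%). The reverse, past the fold outside and within 1.2-fold in the epithelium, held for 32 upwards (1.33%) and 39 downwards (1.62%), as many downwards as for the epithelium. A further 15 genes (0.624%) were past the fold in opposite directions. These classes were selected on the measured ratios and describe them, with no test.

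Few of the epithelium-only differences, and more of the shared ones, stayed with clusters weighed alike. Of the 93 genes past the fold in the same direction in both compartments, 37 kept that class, 25 of them upwards and 12 downwards. Of the 51 epithelium-only genes, 1 kept its class, and of the 71 outside-only genes also 1. New genes entered at this setting, giving 4 epithelium-only genes upwards and 7 downwards, and 31 and 16 genes in both. A separate count took genes that were in a weighed class at every Leiden resolution tried. It held 25 genes higher in both compartments and 10 lower in both. Only 10 of these 25 and 4 of these 10 were genes that the naming rule allows. The others were mainly genes of ribosomes or the mitochondrial genome and unnamed models. The 1 higher and 3 lower epithelium-only genes of this count were all allowed.

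**Figure D1:**
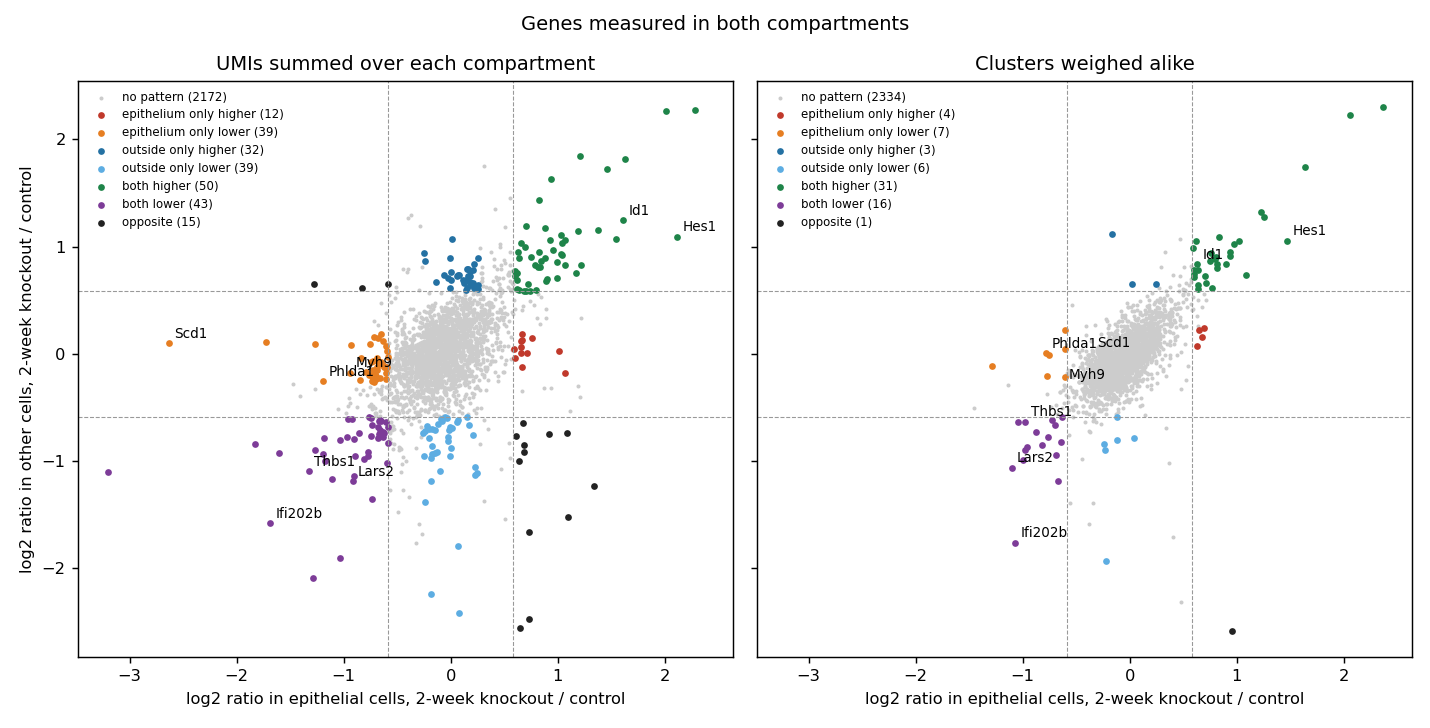
Each point is 1 of the 2402 genes measured in both compartments, placed by its log2 ratio of the 2-week knockout to control in epithelial cells (x axis) and in other cells (y axis), with 1.5-fold marked by dashed lines and colours for the classes. In the left panel, from summed UMIs, 50 and 43 genes lie past the fold in the same direction in both, and Scd1 and Phlda1 lie to the left near the zero line of other cells; in the right panel, with clusters weighed alike, the points draw in towards the origin while Hes1, Id1, Lars2 and Ifi202b stay past the fold in both.

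Of the 39 genes lower in the epithelium alone, Phlda1, Myh9 and Zbtb21 were also past the fold in the epithelium with clusters weighed alike. Phlda1, a pleckstrin homology-like domain protein, stood in epithelial cells at 1171 CPM in control, 512 in the 2-week knockout and 367 in the 3-week knockout. In other cells it stood at 217 CPM in control, 182 in the 2-week knockout and 157 in the 3-week knockout. Both knockout libraries thus lay below control in the epithelium, and the levels outside were closer together. The 2-week knockout was 2.29-fold lower (interval 2.26 to 2.32) in the epithelium and 1.19-fold lower (interval 1.11 to 1.28) outside, and the ratio of both ratios was 0.522 (interval 0.484 to 0.562). With clusters weighed alike the ratios were 0.583 and 1.004, so that Phlda1 was the only one of the 51 to keep its class. It was past the fold downwards in 11 of 19 epithelial clusters with enough UMIs and upwards in 1, and among clusters of other cells downwards in 4 of 11 and upwards in 2. Without the keratinocyte-led cluster its level in other cells was 181 CPM in control against 176 in the 2-week knockout. Thinned to equal depth, 61.5% of epithelial cells in control and 38.2% in the 2-week knockout had a Phlda1 UMI, against 20.7% and 17.3% of other cells.

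Myh9, the heavy chain of non-muscle myosin IIA, stood in epithelial cells at 463 CPM in control, 242 in the 2-week knockout and 253 in the 3-week knockout. In other cells it stood at 279 CPM in control, 247 in the 2-week knockout and 183 in the 3-week knockout. It was 1.91-fold lower (interval 1.87 to 1.96) in the 2-week epithelium, with no epithelial cluster past the fold upwards and 12 of 19 past it downwards. Outside it was 1.13-fold lower (interval 1.06 to 1.202), and with clusters weighed alike the ratios were 0.652 and 0.820, which puts the other cells just past the 1.2-fold limit. Zbtb21, a zinc finger repressor, went from 66.0 to 38.8 CPM in epithelial cells and from 58.4 to 50.8 CPM outside, with weighed ratios of 0.656 and 0.805.

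The only epithelium-only gene on the higher side that stayed past the fold with clusters weighed alike was Sec61g, the gamma subunit of the protein translocation channel of the endoplasmic reticulum. Its epithelial levels were 207 CPM in control, 328 in the 2-week knockout and 346 in the 3-week knockout, and those outside 275 CPM in control, 312 in the 2-week knockout and 361 in the 3-week knockout. The 2-week knockout was 1.58-fold higher (interval 1.54 to 1.62) in the epithelium and 1.14-fold higher (interval 1.07 to 1.204) outside, but with clusters weighed alike the ratios came to 1.64 and 1.41. The 3' end of Sec61g shares sequence with 4 other annotated genes, so its counts are uncertain. Marcksl1 and Postn were past the fold from the sums only. Postn, which encodes the matrix protein periostin, went from 402 to 812 CPM in the epithelium and had a weighed ratio of 1.05 there. Marcksl1, an actin-regulating protein, went from 37.2 to 77.8 CPM with a weighed ratio of 1.39.

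At all 3 Leiden resolutions tried, 0.5, 1 and 2, the same 3 genes downwards and 1 upwards were in the epithelium-only class with clusters weighed alike. This selection was made after the values were seen. The 3 genes downwards were Phlda1, Bst2 and Cald1. Bst2, the interferon-induced surface protein tetherin, stood in epithelial cells at 55.4 CPM in control, 19.9 in the 2-week knockout and 16.5 in the 3-week knockout, and in other cells at 98.5 CPM in control, 81.3 in the 2-week knockout and 69.6 in the 3-week knockout. The 2-week epithelium was 2.78-fold lower (interval 2.60 to 2.98), and 14 of 16 epithelial clusters were past the fold downwards, against 1 of 10 clusters of other cells. In the epithelium Bst2 passed the limit of 50 CPM through the control library only. Cald1, which encodes the actin- and myosin-binding protein caldesmon, stood in epithelial cells at 78.9 CPM in control, 50.5 in the 2-week knockout and 20.8 in the 3-week knockout. Its level outside, 432 CPM in control against 323 in the 2-week knockout, was also lower in the sums, and its weighed ratios were 0.592 in the epithelium and 0.993 outside. Sdhb, the iron-sulphur subunit of succinate dehydrogenase, was the gene upwards, with epithelial levels of 70.2 CPM in control, 99.4 in the 2-week knockout and 78.8 in the 3-week knockout and weighed ratios of 1.54 and 1.05.

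**Figure D2:**
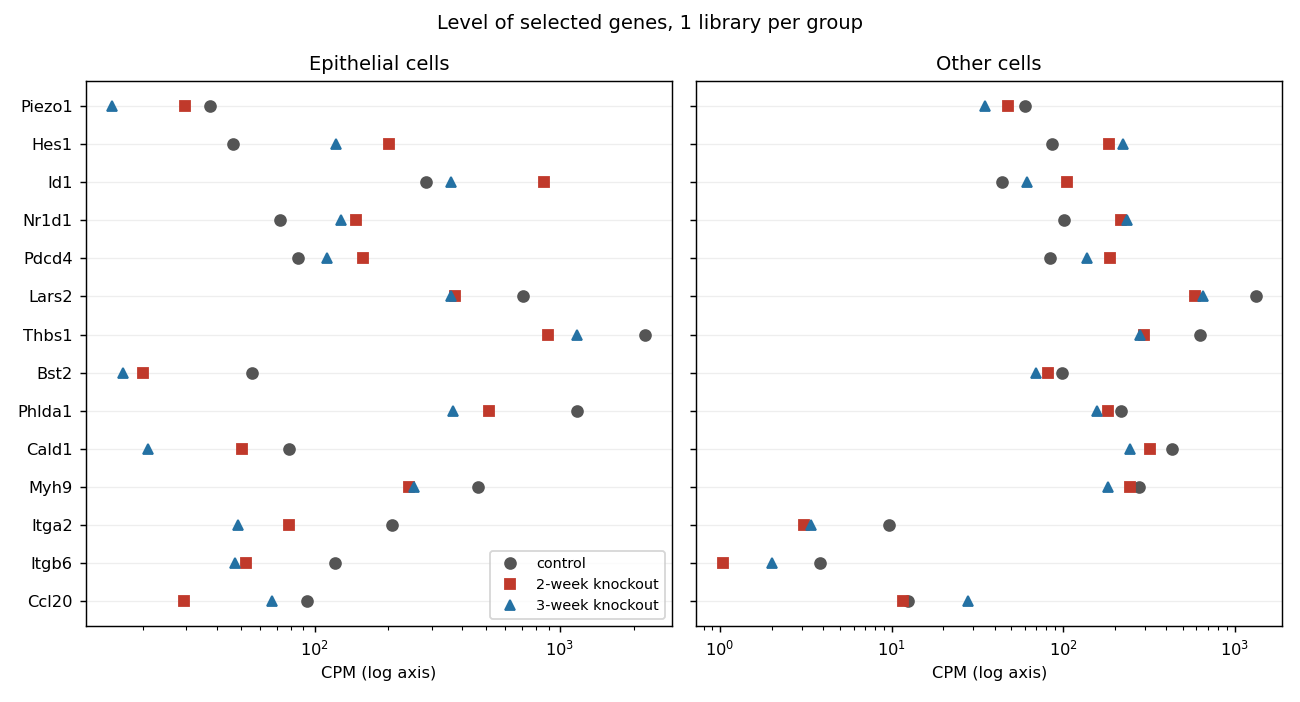
CPM on a log axis for 14 genes in epithelial cells (left) and other cells (right), with 1 point per library: control (circles), 2-week knockout (squares) and 3-week knockout (triangles). Piezo1 lies below control in both panels, Hes1 and Nr1d1 lie above control in both, and for Phlda1, Bst2 and Myh9 the control stands apart from both knockouts in the left panel more than in the right; scales of the 2 panels differ.

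Genes measured in the epithelium but not among other cells numbered 483, of which 42 were higher and 69 lower in the 2-week knockout, beside 4.68% and 6.9% of all genes measured in the epithelium. After weighing, 3 and 23 were past the fold. For these genes the compartments cannot be compared, because the other cells hold too few UMIs. The 2 integrin subunits among them were lower in both knockouts. Itga2, the alpha subunit of a collagen receptor, stood at 207 CPM in control, 79.0 in the 2-week knockout and 48.5 in the 3-week knockout. The 2-week epithelium was 2.62-fold lower (interval 2.53 to 2.71), and 12 of 18 epithelial clusters were past the fold downwards and none upwards. Itgb6, the beta subunit of an epithelial integrin that activates latent TGF-beta, stood at 121 CPM in control, 52.5 in the 2-week knockout and 47.4 in the 3-week knockout. Its weighed ratio was 0.562 and that of Itga2 0.544.

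Of the other named genes in this class that were lower, Ccl20, a chemokine that attracts cells with the receptor CCR6, stood at 92.8 CPM in control, 29.4 in the 2-week knockout and 66.7 in the 3-week knockout, so the 3-week value lay closer to control than the 2-week value. Epgn, a ligand of the EGF receptor, stood at 849.5 CPM in control, 362 in the 2-week knockout and 780.0 in the 3-week knockout, with the same order. The 2-week epithelium was 3.15-fold lower (interval 2.99 to 3.33) for Ccl20 and 2.35-fold lower (interval 2.31 to 2.39) for Epgn. Their weighed ratios were 0.376 and 0.603, but Ccl20 was past the fold upwards in 5 of 16 clusters and downwards in 8 of 16. Ccl20 was seen in few cells: thinned to equal depth, in 3.91% of control and 1.67% of knockout epithelial cells, and 1 cell gave 9.12% of its control UMIs. The amino acid transporter gene Slc6a14 went from 75.2 to 32.8 CPM.

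On the higher side of these genes, Plp2 went from 47.8 to 112 CPM and was past the fold in 19 of 19 epithelial clusters. Gm6169, a gene model that shares its 3' end, went the other way, from 58.7 to 37.3 CPM, and both together went from 106 to 149 CPM, a ratio of 1.40, within the fold. Churc1 went from 30.4 to 69.5 CPM, and Hmgn2, which encodes a nucleosome-binding protein, from 30.9 to 57.3 CPM. All 3 were above control among the other cells too, although under the limit for a measured gene there: the ratios outside were 2.13, 1.66 and 2.00. Their 3' ends share sequence with 2, 49 and 14 other annotated genes, so their counts are uncertain. With the UMIs of the counted genes that share its 3' end added, Churc1 had ratios of 0.971 in the epithelium and 0.927 outside. Those other genes made up most of that sum, 1325 of 1355 CPM in control epithelium. Treated the same way, Hmgn2 kept ratios of 1.83 and 1.99.

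Actin, myosin and adhesion genes, the cytoskeleton through which cells bear load, were lower in the epithelium for 4 of the 22 measured members and higher for none, beside 6.9% lower among all measured genes. The 4 were Actb, Myh9, Zyx and Itga2. Actb, cytoplasmic beta-actin, stood in epithelial cells at 6844 CPM in control, 3525 in the 2-week knockout and 4310.0 in the 3-week knockout. Zyx, the focal adhesion protein zyxin, stood at 104 CPM in control, 62.2 in the 2-week knockout and 55.4 in the 3-week knockout. The median log2 ratio of the list was -0.34 in the epithelium (-0.23 with clusters weighed alike), where that of all genes was -0.09 (-0.07). Outside, 6 of 22 members were lower and 1 higher, with a median of -0.28; with clusters weighed alike none was past the fold and the median was -0.02, while in the epithelium 4 still were. Members lower outside in the sums included Tpm2 and Myl9, which smooth muscle also expresses, and the summed mural cell markers there went from 1188 to 431 CPM; their part in the result was not tested.

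In the list of mechanosensitive channels and calcium handling, which includes Piezo1, 2 of 8 measured members were lower in the epithelium and 2 of 10 outside, none with clusters weighed alike; over all measured genes 6.9% and 12.1% were lower. The 2 were the same in both compartments. Atp2b1, a calcium pump of the plasma membrane, went from 221 to 143 CPM in the epithelium and from 344 to 206 CPM outside. Capn2, a calcium-dependent protease, went from 108 to 69.9 CPM and from 88.9 to 53.8 CPM. Of the YAP target list, transcription that responds to cell tension, 2 of 6 members measured in the epithelium were lower and 1 higher, where 6.9% and 4.68% of all measured genes were. The lower ones were Thbs1 and F3, described below, and the higher one was Ccn2, at 83.9 CPM in control against 177 in the 2-week knockout with a weighed ratio of 1.01.

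Chemokines and alarmins, by which keratinocytes and dermal cells call in leukocytes, were lower at 6 of 9 measured members in the epithelium and at 6 of 12 outside, and higher at none, beside 6.9% and 12.1% lower among all measured genes. The median log2 ratios were -0.65 in the epithelium and -0.51 outside. Tslp, an epithelial cytokine, stood in epithelial cells at 186 CPM in control, 104 in the 2-week knockout and 121 in the 3-week knockout. Il33, an alarmin of the interleukin 1 family, stood at 204 CPM in control, 126 in the 2-week knockout and 124 in the 3-week knockout, and Ptgs2, the inducible cyclooxygenase, at 657 CPM in control, 418 in the 2-week knockout and 388 in the 3-week knockout. In other cells the monocyte chemoattractant Ccl2 stood at 553 CPM in control, 148 in the 2-week knockout and 179.5 in the 3-week knockout, where myeloid and fibroblast markers were lower too. Of the lower members, 1 in the epithelium and 2 outside remained past the fold with clusters weighed alike, and the medians were then -0.35 and -0.12.

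The largest epithelium-only difference in the sums was in lipid genes and went with 1 small cluster. Scd1, the stearoyl-CoA desaturase, stood in epithelial cells at 216 CPM in control, 34.9 in the 2-week knockout and 134 in the 3-week knockout, and outside at 56.2 CPM in control, 60.1 in the 2-week knockout and 88.5 in the 3-week knockout. The 2-week epithelium was 6.19-fold lower (interval 5.92 to 6.48), while the ratio outside was 1.07 (interval 0.936 to 1.22). Fabp5, a fatty acid binding protein, stood in epithelial cells at 294 CPM in control, 122 in the 2-week knockout and 275 in the 3-week knockout. Cers4, a ceramide synthase, went from 53.4 to 16.2 CPM. The epithelial cluster whose leading genes include Scd1 and Soat1, genes of lipid-producing cells, held 60 control and 11 knockout cells and was too small in the knockout to be weighed. In the remaining clusters weighed alike the ratios were 0.784 for Scd1, 0.979 for Fabp5 and 0.723 for Cers4.

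Genes of cholesterol synthesis went the same way, with 4 of 10 measured members lower in the epithelium and none outside (6.9% and 12.1% of all measured genes were lower), and median log2 ratios of -0.54 in the epithelium and 0.38 outside. No member was past the fold in either compartment with clusters weighed alike, and the medians were -0.23 and 0.04. Plin2, which coats lipid droplets, and Akr1c18, a steroid-metabolising reductase, are 2 further genes of the cluster with Scd1 and Soat1 and were not measured outside. Akr1c18 went from 55.0 to 8.34 CPM and Plin2 from 91.9 to 16.6 CPM. Weighing left that cluster out. With clusters weighed alike, Akr1c18 stood at 8.21 CPM in control against 2.445 in the 2-week knockout. Plin2 then stood at 25.505 CPM in control against 14.045 in the 2-week knockout. The weighed ratios of 0.298 and 0.551 thus compare levels under the limit of 50 CPM, and only 7 epithelial clusters had enough Akr1c18 UMIs.

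**Figure D3:**
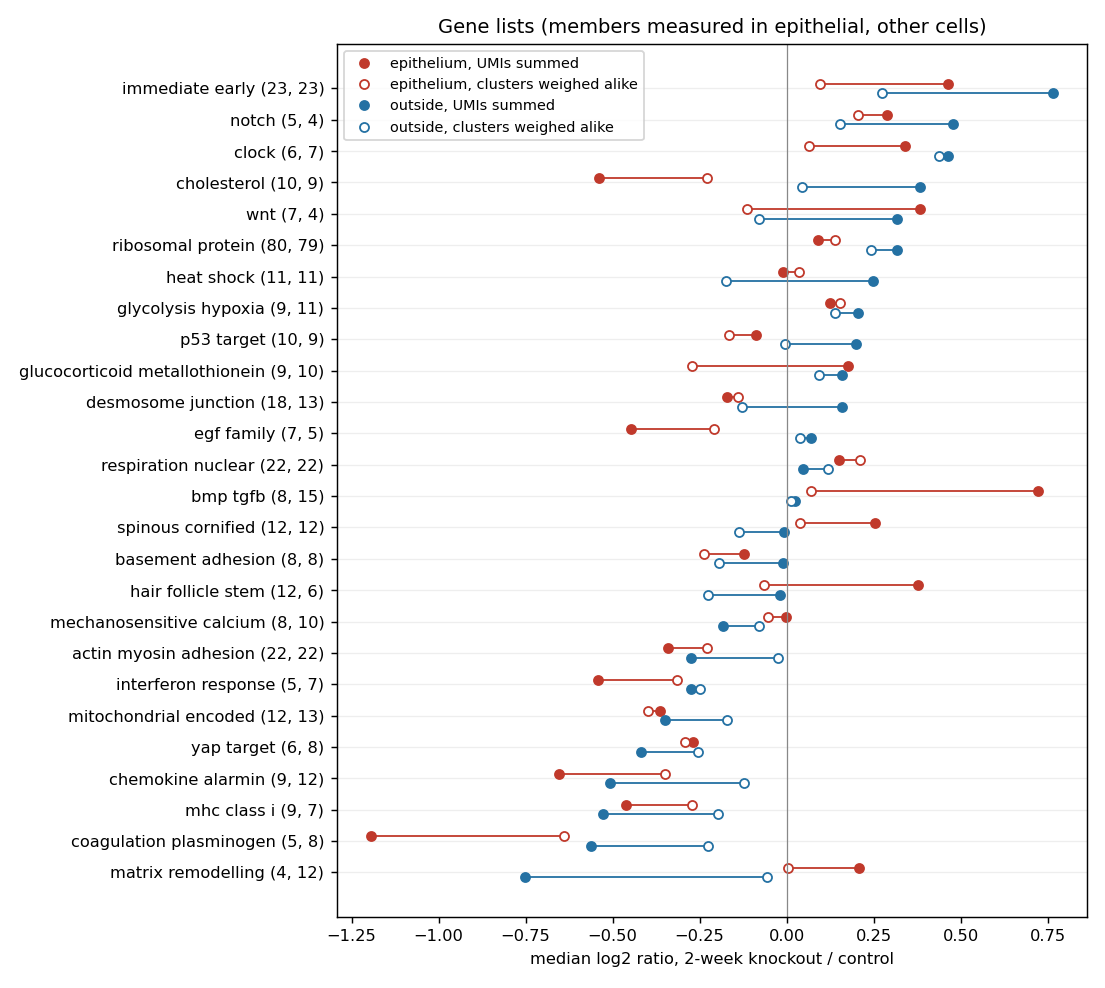
Median log2 ratio of the 2-week knockout to control over the measured members of each gene list, in epithelial cells (red) and other cells (blue), from summed UMIs (filled) and with clusters weighed alike (open), for lists with at least 3 measured members in both compartments. Cholesterol genes lie at -0.54 in the epithelium and 0.38 outside from the sums, and both open circles lie nearer to 0.

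Hes1 had the highest epithelial ratio of the named genes and was higher in every weighed epithelial cluster. Hes1, a repressor induced by Notch signalling, stood in epithelial cells at 46.5 CPM in control, 201 in the 2-week knockout and 122 in the 3-week knockout. In other cells it stood at 86.6 CPM in control, 185 in the 2-week knockout and 224 in the 3-week knockout. Both knockouts lay above control in both compartments. In the epithelium Hes1 passed the limit of 50 CPM through the 2-week knockout only, which favours a gene that is higher there. The 2-week knockout was 4.34-fold higher (interval 4.12 to 4.56) in the epithelium and 2.13-fold higher (interval 1.95 to 2.33) outside; with clusters weighed alike the ratios were 2.76 and 2.08. It was past the fold upwards in 19 of 19 epithelial and 7 of 9 other clusters. Thinned to equal depth, 8.23% of epithelial cells in control and 27.4% in the 2-week knockout had a Hes1 UMI, and 13% and 22.6% of other cells. The remaining measured members of the Notch list in the epithelium, which were the receptor Notch1, the ligands Jag1 and Jag2 and the DNA-binding partner Rbpj, were not past the fold, with ratios from 0.976 for Jag1 to 1.24 for Rbpj.

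Id1, an inhibitor of helix-loop-helix factors that BMP signalling induces, stood in epithelial cells at 284 CPM in control, 865 in the 2-week knockout and 361 in the 3-week knockout, and in other cells at 44.2 CPM in control, 105 in the 2-week knockout and 61.9 in the 3-week knockout. The 2-week epithelium was 3.04-fold higher (interval 2.98 to 3.11), and the 3-week value lay between. Among other cells Id1 passed the limit of 50 CPM through the 2-week knockout only. With clusters weighed alike the ratios were 1.54 and 1.79, and 16 of 19 epithelial clusters were past the fold. Its relative Id3 stood in epithelial cells at 586 CPM in control, 1360.0 in the 2-week knockout and 624 in the 3-week knockout with a weighed ratio of 1.48. Of the whole BMP and TGF-beta list, 4 of 8 members were higher and 1 lower in the epithelium, beside 4.68% and 6.9% of all measured genes, but only Id1 was past the fold there with clusters weighed alike.

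Nr1d1, the clock repressor REV-ERB alpha, stood in epithelial cells at 72.2 CPM in control, 147 in the 2-week knockout and 128 in the 3-week knockout, and in other cells at 102 CPM in control, 219 in the 2-week knockout and 236 in the 3-week knockout. Of the clock list, 1 of 6 measured members was higher in the epithelium and 3 of 7 outside (4.68% and 7.81% over all measured genes). Outside, Bhlhe40 went from 212 to 580.0 CPM. The activator Arntl, which Nr1d1 represses, stood at 51.5 CPM in control against 38.8 in the 2-week knockout in the epithelium and at 51.4 CPM in control against 35.3 in the 2-week knockout outside, within the fold in both. The labels used here give no hour of collection, so its part in these values was not tested.

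Of the other named genes higher in both compartments, Pdcd4, an inhibitor of translation initiation, stood in epithelial cells at 85.3 CPM in control, 157 in the 2-week knockout and 112 in the 3-week knockout, and was past the fold in 16 of 19 epithelial and 9 of 10 other clusters. Nmt1, which attaches myristate to proteins, went from 30.7 to 61.1 CPM in the epithelium and from 41.0 to 73.9 CPM outside. Snrnp27, a spliceosome component, went from 40.0 to 68.8 and from 37.8 to 67.4 CPM. Tsc22d4 had ratios of 2.25 and 1.69. With clusters weighed alike, Nr1d1 and Tsc22d4 were not past the fold in both compartments at every resolution, while Pdcd4, Nmt1 and Snrnp27 were. Mt4, a metallothionein of differentiating keratinocytes, went from 155 to 276 CPM in the epithelium, but its level outside, 91.9 CPM in control against 248 in the 2-week knockout, came from the keratinocyte-led cluster: without it the level was 3.36 CPM in control against 6.09 in the 2-week knockout.

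Immediate early genes, which cells switch on within minutes of a stimulus or of dissociation, were often higher in both compartments. In the epithelium 8 of 23 members were higher and none lower, and outside 15 and none, beside 4.68% and 7.81% higher among all measured genes. Fos stood in epithelial cells at 2402 CPM in control, 6618 in the 2-week knockout and 4407 in the 3-week knockout, and in other cells at 1927 CPM in control, 6349 in the 2-week knockout and 4799 in the 3-week knockout. Weighing left 0 epithelial and 5 other members past the fold, and the medians went from 0.46 to 0.10 in the epithelium and from 0.77 to 0.27 outside. The part of the dissociation in these values was not tested.

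Lars2 and Thbs1 were lower in both compartments. With clusters weighed alike, Lars2 was past the fold in both at every resolution tried, and Thbs1 was not. Lars2, the mitochondrial leucyl-tRNA synthetase, stood in epithelial cells at 705 CPM in control, 373 in the 2-week knockout and 360.0 in the 3-week knockout, and in other cells at 1331 CPM in control, 585 in the 2-week knockout and 651 in the 3-week knockout. It was past the fold downwards in 18 of 19 epithelial and 10 of 11 other clusters, with weighed ratios of 0.465 and 0.479. Gm42418, an unnamed and abundant gene model chosen after its values were seen, was lower by a similar factor. It went from 29648 to 16894 CPM in the epithelium and from 73751 to 37435 CPM outside, with weighed ratios of 0.508 and 0.537. Whether the changes of Lars2 and Gm42418 are related was not tested. Thbs1, the matrix glycoprotein thrombospondin 1, stood in epithelial cells at 2234 CPM in control, 891 in the 2-week knockout and 1178 in the 3-week knockout, and in other cells at 628 CPM in control, 295 in the 2-week knockout and 283 in the 3-week knockout. Both knockouts were below control in both compartments. The 2-week knockout was 2.51-fold lower (interval 2.48 to 2.53) in the epithelium and 2.13-fold lower (interval 2.02 to 2.25) outside, and without the keratinocyte-led cluster the level in other cells was 671 CPM in control against 330.4 in the 2-week knockout.

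**Figure D4:**
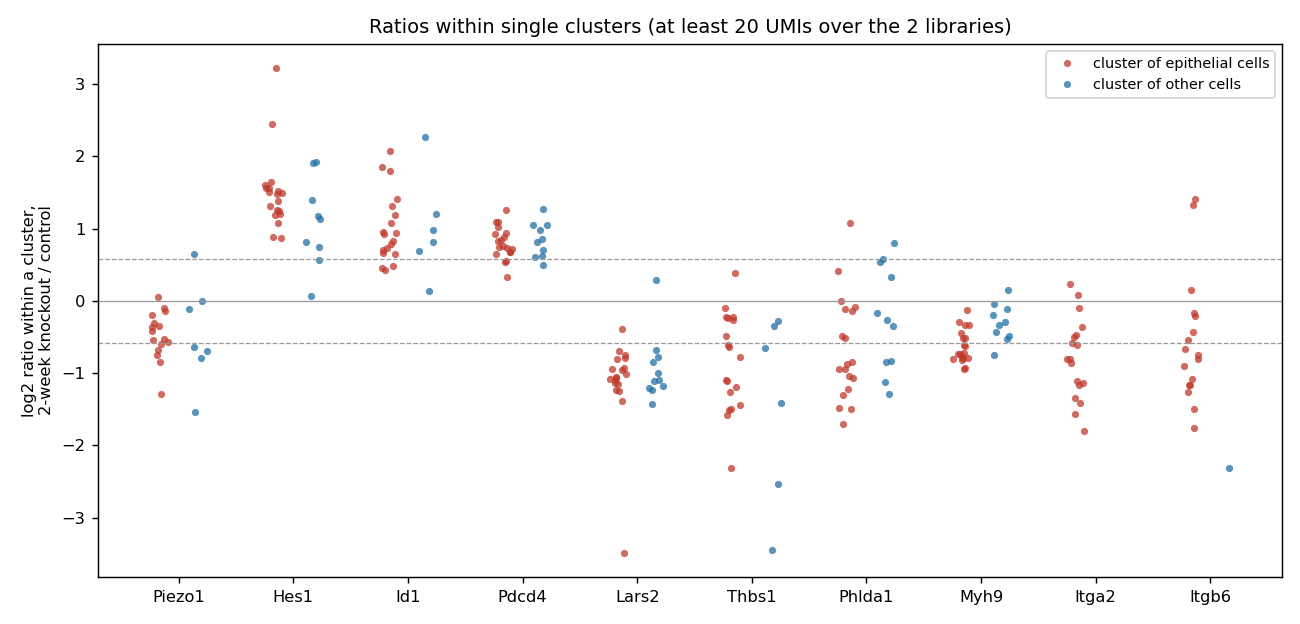
Log2 ratio of the 2-week knockout to control within single clusters of epithelial cells (red) and of other cells (blue) for 10 genes, with 1 point per cluster that had at least 20 UMIs over both libraries, a UMI in each and enough cells to be weighed. All epithelial points of Hes1 lie above the dashed 1.5-fold line, those of Lars2 below 0, and those of Phlda1 spread over both sides of 0 in both colours.

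Thbs1 is 1 of 3 members of the coagulation and plasminogen list that were lower in the epithelium, of 5 measured, where 6.9% of all measured genes were lower. F3, tissue factor, which starts coagulation, stood in epithelial cells at 430.1 CPM in control, 178 in the 2-week knockout and 146 in the 3-week knockout. Serpinb2, an inhibitor of plasminogen activators, stood there at 4053 CPM in control, 1771 in the 2-week knockout and 2073 in the 3-week knockout. All 3 were past the fold with clusters weighed alike too, with ratios of 0.509, 0.642 and 0.630. Outside, 4 of 8 members were lower, beside 12.1% of all measured genes, but F3 and Serpinb2 came there largely from the keratinocyte-led cluster. Without it F3 stood at 24.0 CPM in control against 23.4 in the 2-week knockout, so that it was no longer lower outside, and Serpinb2 at 29.0 CPM in control against 20.03 in the 2-week knockout. In the 3-week knockout F3 in other cells stood at 111 CPM, above the control value of 86.0 CPM. Rap2b, a small GTPase, went from 296 to 130.3 CPM in the epithelium and from 50.1 to 29.1 CPM outside. Like Thbs1, the genes F3, Serpinb2 and Rap2b were not past the fold in both compartments at every resolution with clusters weighed alike.

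A pair of interferon-inducible genes were among those lower in both. Ifi202b stood in epithelial cells at 2182 CPM in control, 676 in the 2-week knockout and 650.5 in the 3-week knockout. Its level outside, 126 CPM in control against 42.4 in the 2-week knockout, was 18.5 CPM in control against 11.4 in the 2-week knockout without the keratinocyte-led cluster. Ifi27l2a stood in epithelial cells at 489 CPM in control, 200.3 in the 2-week knockout and 114 in the 3-week knockout, and in other cells at 82.3 CPM in control, 19.3 in the 2-week knockout and 46.0 in the 3-week knockout. Its weighed ratio outside was 0.643, and without the keratinocyte-led cluster it was 0.709, within the fold. Of 3 clusters of other cells with enough UMIs, 1 was past the fold downwards. The interferon response list as a whole had 2 of 5 members lower in the epithelium, Bst2 and Ifi27l2a, and 1 higher, Irf1, at 116 CPM in control against 203 in the 2-week knockout. Outside, 2 of 7 were lower (6.9% and 12.1% of all measured genes were lower in the 2 compartments), and the median log2 ratios were -0.54 in the epithelium and -0.28 outside.

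Fibrillar matrix genes, the collagens and their partners that fibroblasts secrete, were lower in the other cells. Of 19 fibrillar matrix genes measured there, 15 were lower and none higher, beside 12.1% lower among all measured genes. Col1a1, the main chain of collagen I, stood in other cells at 8149 CPM in control, 1565 in the 2-week knockout and 2603 in the 3-week knockout. Col3a1 stood at 5109 CPM in control, 1245 in the 2-week knockout and 2369 in the 3-week knockout. The median log2 ratio of the list was -1.66 from the sums and -0.28 with clusters weighed alike, where 3 members were lower and 1 higher. The weighed values leave out the cluster led by Col1a2 and Col1a1, which held 172 control and 11 knockout cells. The fibroblast markers given above, 6 of which are in this list, moved with it. Of the outside-only genes 1 that the naming rule allows stayed past the fold outside with clusters weighed alike. Chp1, a calcineurin B homologous protein, stood in other cells at 69.0 CPM in control, 42.6 in the 2-week knockout and 55.9 in the 3-week knockout, and in epithelial cells at 59.4 CPM in control against 52.5 in the 2-week knockout.

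Areg, Eppk1, Krt80 and Mgll joined Chp1 in the outside-only class at all 3 resolutions, chosen after their values were seen. Areg, the EGF receptor ligand amphiregulin, stood in other cells at 127 CPM in control, 219.7 in the 2-week knockout and 184 in the 3-week knockout, and in epithelial cells at 158 CPM in control, 116 in the 2-week knockout and 124 in the 3-week knockout, so that the sums put it lower in the epithelium, within the fold, and higher outside. Only 3 clusters of other cells had enough Areg UMIs, of which 1 was past the fold upwards and 1 downwards. Krt80 and Eppk1, a keratin and the keratin-binding epiplakin, came from the keratinocyte-led cluster: without it Krt80 stood in other cells at 5.93 CPM in control against 3.73 in the 2-week knockout, and Eppk1 at 2.17 CPM in control against 3.14 in the 2-week knockout. The sums put Mgll, the monoglyceride lipase, the other way round: it stood in epithelial cells at 92.5 CPM in control, 34.9 in the 2-week knockout and 79.8 in the 3-week knockout, 2.65-fold lower (interval 2.51 to 2.79) at 2 weeks, and in other cells at 71.02 CPM in control, 53.9 in the 2-week knockout and 50.3 in the 3-week knockout. Its weighed ratios were 0.853 in the epithelium and 0.537 outside.

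Several bulge and hair follicle stem cell genes were higher in the summed epithelium, and were not with clusters weighed alike. In the sums 5 of 12 measured members were higher and 1 lower, beside 4.68% and 6.9% of all measured genes, with a median of 0.38. Lhx2 stood in epithelial cells at 46.4 CPM in control, 128 in the 2-week knockout and 51.1 in the 3-week knockout, and Lgr5 at 47.3 CPM in control, 93.4 in the 2-week knockout and 37.6 in the 3-week knockout, so the 3-week values were close to or below control. No member was past the fold in the weighed values, and their median was -0.07.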

How the data were processed

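The deposited matrices hold, per the file headers and, for the tool and build, the submitters' processing notes, raw UMI counts per gene and barcode from Cell Ranger 6.1.2 and the mm10 genome, over 32285 genes; which annotation release was used, and whether introns were counted, is not given in the sources used here. Total UMIs were 62967542 in control, 97960352 in the 2-week knockout and 118610125 in the 3-week knockout. Groups were taken from the labels. The compartments, gene lists, and classes were chosen with earlier results of these data known.

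Barcodes with fewer than 500 genes or at least 15% mitochondrial UMIs were dropped, keeping 5022, 9869 and 9993. UMIs were summed per library and compartment and scaled to 1000000 per sum (CPM). Ratios carry exact conditional 95% intervals from counts, and ratios of ratios combine these (MOVER); UMIs of 1 library are not independent samples, so the intervals cover counting error only. A gene at 0 was set to 3 counts. Scrublet (in scanpy 1.11.5) marked 110, 284 and 394 kept cells as doublets, which stayed in except in 1 alternative.

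For the weighing, cells of the control and 2-week libraries were clustered per compartment without correction for library (2000 variable genes, 30 principal components, 15 neighbours, Leiden resolution 1, seed 1). CPM was averaged over clusters with at least 20 cells in both libraries, 19 of 22 epithelial and 11 of 21 other clusters. Each cluster was weighted by its cells over both libraries, with the same weight in each library. Clusters were made from the same genes. They served for the weighing, for counts of clusters past the fold and for leaving out the 1 cluster of other cells led by keratinocyte genes (called keratinocyte-led after those genes). A cluster is counted for a gene with at least 20 UMIs over both libraries. Sharing of 3' ends was checked as identical runs of 60 bases within the last 400 bases of annotated transcripts (GENCODE vM21).

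Named genes, which exclude unnamed models and the genes of ribosomes, haemoglobin, the mitochondrial genome and the sex chromosome check, had to be past the fold from the sums and with clusters weighed alike: up to 10 per side for the epithelium alone, 8 per side for the other cells alone, for both and for genes not measured outside, and 5 per side for opposite directions from the sums only; list members and genes said to be chosen after their values were seen were added, as were Marcksl1, Postn, Scd1, Fabp5 and Cers4. Of 29 gene lists, the text gives those whose members differed most and some of the others. A few genes that these rules name are not reported here. The counting script was tested on simulated data.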

Additional observations from a re-analysis of the deposited data

Results flagged for a closer look

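Genes past 1.5-fold in opposite directions in the 2 compartments are listed here because the 2-week library moved one way in epithelial cells and the other way in other cells. With 1 library per group the difference between the compartments was not tested. Crct1 and Lor, genes of the cornified envelope, had log2 ratios of 0.73 and 0.65 in the epithelium and of -2.47 and -2.55 outside. At 3 weeks both were above control outside as well: Crct1 stood there at 298 CPM in control, 53.9 in the 2-week knockout and 1007 in the 3-week knockout, and Lor at 445 CPM in control, 76.0 in the 2-week knockout and 2179 in the 3-week knockout. Their counts among other cells came from few cells: 1 cell held 45.3% of the Crct1 UMIs in control and 75.4% in the 2-week knockout, and for Lor 59% and 79.8%. Without the keratinocyte-led cluster Crct1 stood outside at 5.93 CPM in control against 4.12 in the 2-week knockout, and Lor at 19.7 CPM in control against 15.7 in the 2-week knockout.

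Cd34, a surface protein of bulge stem cells and of dermal cells, had log2 ratios of 1.10 in the epithelium and -1.52 outside. Grem1, a BMP antagonist, had 1.34 and -1.23, and Sparc, a matrix protein of fibroblasts, 0.73 and -1.66. At 3 weeks Cd34 and Grem1 were below control in the epithelium, where Cd34 stood at 74.6 CPM in control, 159 in the 2-week knockout and 36.5 in the 3-week knockout, and Grem1 at 52.3 CPM in control, 133 in the 2-week knockout and 34.7 in the 3-week knockout. Outside, Cd34 stood at 269 CPM in control, 93.4 in the 2-week knockout and 275 in the 3-week knockout, and Grem1 at 55.1 CPM in control, 23.4 in the 2-week knockout and 118 in the 3-week knockout. Sparc stood at 113 CPM in control, 187 in the 2-week knockout and 117 in the 3-week knockout in the epithelium and at 3890.0 CPM in control, 1230.0 in the 2-week knockout and 1603 in the 3-week knockout outside. With clusters weighed alike the ratios of these 3 in the epithelium were 0.900, 1.07 and 1.04, all within the fold, and outside 0.842, 1.41 and 0.747.

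In the other direction, the stress-induced gene Gadd45a had log2 ratios of -1.28 in the epithelium and 0.65 outside. Tm4sf1, a tetraspanin-like surface protein, had -0.83 and 0.61. Plk2, a polo-like kinase, had -0.59 and 0.66. With clusters weighed alike Gadd45a had a ratio of 0.656 in the epithelium and 1.03 outside, Tm4sf1 0.911 and 0.990, and Plk2 0.875 and 1.13. The 3-week levels in the epithelium and outside were 95.4 and 70.6 CPM for Gadd45a (control 195 and 70.5), 102 and 182 CPM for Tm4sf1 (control 199 and 272), and 315 and 127 CPM for Plk2 (control 418 and 98.1).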

How the results depend on the processing

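The counts moved mostly with the weighing of clusters and with the thresholds. In the order epithelium-only higher, epithelium-only lower, outside-only higher, outside-only lower, both higher, both lower and opposite, the sums gave 12, 39, 32, 39, 50, 43 and 15 genes. Clusters weighed alike gave 4, 7, 3, 6, 31, 16 and 1, and also without the keratinocyte-led cluster 3, 6, 3, 4, 29, 11 and 0. The latter, and the resolutions of 0.5 and 2, were chosen after seeing the data. At resolution 2 the weighed counts were 5, 4, 3, 13, 27, 11 and 1, and at resolution 0.5 they were 4, 14, 5, 10, 34, 18 and 3. A minimum of 200 CPM gave 3, 8, 8, 7, 27, 18 and 1, a minimum of 20 CPM 34, 86, 80, 105, 92, 65 and 32, and a 2-fold limit 2, 4, 1, 9, 13, 6 and 2. Scaling to the median ratio gave 21 and 25 epithelium-only genes upwards and downwards and 25 lower in both. The mean of per-cell CPM gave 20 outside-only higher and 6 opposite genes, thinning to 2000 UMIs gave 9 opposite genes, at least 1% keratin UMIs gave 62 epithelium-only lower genes, and other cells without Ptprc or Pecam1 gave 62 outside-only higher genes. The Piezo1 ratio in the epithelium was 0.716 after thinning and 0.681 at resolution 0.5, below 1 as in every alternative run. The remaining alternatives (1 or 2 Vim UMIs, 1000 genes and 10% mitochondrial UMIs, no doublets, 5 CPM added, and the sums without the keratinocyte-led cluster) kept all 7 counts within 1.5 times. A similar count did not always mean the same genes. Of the 39 epithelium-only lower genes from the sums, 22 were among the 47 after thinning and 24 among the 48 from the mean of per-cell CPM. Without Ptprc or Pecam1 cells 25 stayed among 30, and without doublets 36 among 38. No paired analysis was possible because each group has 1 library. Depth limits the other cells most: 992 knockout cells gave 5803215 UMIs, against 72055756 for the epithelium. The cause of each change was not tested.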

Other observations

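Ribosomal protein genes, which the naming rule leaves out, were higher more often than lower in both compartments. Of 80 members measured in the epithelium 9 were higher and none lower, and of 79 outside 15 and none, beside 4.68% and 7.81% higher among all measured genes. The median log2 ratios were 0.09 and 0.32, and 0.14 and 0.24 with clusters weighed alike. Rpl35 went from 242 to 971 CPM in epithelial and from 132 to 635 CPM in other cells, past the fold in 19 of 19 epithelial and 11 of 11 other clusters. Rps29 went from 2128 to 4834 CPM in epithelial and from 1602 to 3555 CPM in other cells. The 3' ends of these genes share sequence with 7 and 5 other annotated genes, so their counts are uncertain. Rpl10 went from 267 to 821 CPM in epithelial and from 221 to 777 CPM in other cells, while Rpl10-ps3, which shares its 3' end, went from 489 to 250.3 CPM in epithelial and from 399.9 to 233 CPM in other cells. Together they gave ratios of 1.42 in the epithelium, within the fold, and 1.63 outside. In the 3-week knockout Rpl10 stood at 1673 CPM and Rpl10-ps3 at 72.6 CPM in epithelial cells, so the split between them differed between the libraries; its cause was not tested. With the UMIs of all counted genes that share a 3' end added, an alternative chosen after seeing the data, 7 ribosomal protein genes were higher in the epithelium and 14 outside. In the 3-week knockout Rpl35 stood at 1495 CPM in epithelial and 869 CPM in other cells, further from control than in the 2-week knockout. These genes were chosen after their values were seen.

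Mitochondrially encoded genes had median log2 ratios of -0.36 in the epithelium and -0.35 outside, and -0.40 and -0.17 with clusters weighed alike, while nuclear genes of the respiratory chain had 0.15 and 0.05. The mitochondrial list was split. In the epithelium 3 of 12 measured members were higher and 2 lower, beside 4.68% and 6.9% of all measured genes. Outside 2 of 13 were higher and 3 lower, beside 7.81% and 12.1%. With clusters weighed alike 2 were higher and 2 lower in the epithelium, and 4 higher and none lower outside. MHC class I genes and their processing partners were lower at 2 of 9 members in the epithelium and at 2 of 7 outside, beside 6.9% and 12.1% of all measured genes. With clusters weighed alike none was past the fold in either compartment. The median log2 ratios then went from -0.46 to -0.27 in the epithelium and from -0.53 to -0.20 outside. Psmb8, a subunit of the immunoproteasome, went from 128 to 75.3 CPM in epithelial and from 92.5 to 49.1 CPM in other cells. Desmosome and junction genes were lower at 2 of 18 and 1 of 13 members, shares near those over all genes. Differentiation genes of the epidermis were higher at 3 and lower at 1 of 12 members in the epithelium, where 4.68% of all measured genes were higher. Among basement membrane genes, Lama3, a laminin chain, stood there at 156 CPM in control, 99.3 in the 2-week knockout and 78.3 in the 3-week knockout. In the lists for heat shock proteins and the cell cycle no member was past the fold in the epithelium.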
